A study of Homo sapiens with 26 samples.

Results

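The comparison set the 2 NLS-AURKA clones against the 2 WT-AURKA clones of one breast cancer line, 11 of the 26 libraries of the series. Its members were chosen by label: 6 libraries of NLS-AURKA (clone c2, lettered H, W and X in the titles, and clone c3, lettered B, Y and Z) and 5 of WT-AURKA (clone c1, lettered D, O and P, and clone c2, lettered Q and R). All were MDA-MB-231Luc cells, a derivative of a mesenchymal, triple-negative breast cancer line, carrying the pLUTZ mRFP vector, in which doxycycline turns on an AURKA cDNA through a promoter that answers to rtTA. Cells of every line, controls included, grew in 0.1 to 1 mg/ml doxycycline per the labels. The NLS-AURKA clones carried the cDNA labelled MUT1 NLS AURKA with the guide sgAURKA1, and the WT-AURKA clones the cDNA labelled MUT2 WT AURKA with the guide sgAURKA2, so guide, cDNA label and nuclear signal cannot be told apart. Both sets were at passages 32 to 35. The remaining lines, used for the estimate of spread and as reference levels, were 2 NES-AURKA clones (MUT2, sgAURKA2, passages 32 to 35) and 3 control lines with empty vectors (Empty, NES-Empty and NLS-Empty, with sgCon, passages 19 to 20). Each AURKA line is 1 clone, and the labels do not say whether the libraries of a clone came from separate cultures.

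Aurora kinase A, the product of AURKA, is a serine/threonine kinase that matures centrosomes and builds the mitotic spindle. It is activated by binding partners such as TPX2 and BORA and is destroyed after mitosis through the anaphase-promoting complex. AURKA is frequently over-expressed in breast cancer, and kinase-independent roles in the nucleus, on transcription, have been described beside its roles at centrosomes and spindles. The NLS and WT constructs of the series ask how the transcriptome differs when the kinase carries a nuclear localization signal.

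The deposited table gives RPKM, read numbers scaled by transcript length and library total. Depth estimated from the smallest steps of the table was 12200000 to 18700000 reads in these 11 libraries. The 2 letter sets, A to H and I to Z, differed: the nuclear RNA MALAT1 lay at 175 to 235 RPKM in B, D and H and at 6.10 to 30.6 in the other 8. Library D was the only A to H library of WT-AURKA and stood apart from O, P, Q and R. W and X of NLS-AURKA c2 also stood apart: their median absolute log2 distance was 0.573, against 0.272 between W and clone c3's library Y. The share of the summed RPKM taken by a ribosomal RNA row was 10.1% in X and 0.635% in Z, and 5.64% to 7.47% in O, P, Q and R. The closest pairs of WT-AURKA libraries, P with Q and O with R, differed by 1.94 and 1.98 times counting noise in squared difference (572 and 571 genes), so no 2 libraries were taken for 1. Both pairs join different clones and were closer than the pairs within a clone, O with P (3.20) and Q with R (2.57), so the I to Z libraries of WT-AURKA did not group by clone. Of the line's identity genes looked at, VIM was at 348 to 1059 RPKM and AXL at 205 to 532, and CD44, EGFR and ZEB1 were also present. SPARC, looked at as an identity gene too, was nearly absent, at or under 0.166 RPKM. The luminal gene ESR1 was at or under 0.0119 RPKM. Of the other luminal genes looked at, PGR stayed at or under 0.0120 RPKM and CDH1 at or under 0.108. ERBB2 had 2.25 to 5.06 RPKM, and KRT8 and KRT18 were present at 28.1 to 102 and 65.3 to 222. Of 4 other cell types, leukocyte markers summed to 53.4 to 71.5 RPKM in NLS-AURKA and 29.4 to 34.8 in WT-AURKA, nearly all of it CD68, while CD3E was at or under 0.0252 RPKM. Endothelial markers summed to 43.8 to 63.5 and 48.5 to 70.7 RPKM. Nearly all of it was ESAM (28.5 to 64.1), ROBO4 (4.87 to 13.4) and KDR (0.459 to 4.08), while CDH5 was at or under 0.0272. Fibroblast markers summed to 0.236 to 0.871 and 0.417 to 0.829 with DCN at or under 0.00427, and adipocyte markers to at most 0.0586 and 0.100.

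AURKA RNA was higher in the NLS-AURKA clones in the pooled means, and the difference rested on the I to Z libraries. The 6 NLS-AURKA libraries had 38.4, 48.4 and 105 RPKM (lowest, median and highest). The 5 WT-AURKA libraries D, O, P, Q and R had 84.1, 14.1, 12.8, 12.7 and 14.3 RPKM. Library D was as high as the NLS-AURKA libraries, and the other 4 were lower than all of them. The means were 59.2 ± 10.4 RPKM (SD, n = 2 clones) and 25.3 ± 16.6 RPKM (SD, n = 2 clones), a log2 difference of 1.52, SE 0.26, adjusted p = 0.0022. In the I to Z libraries the log2 difference was 1.82 and without library D 1.95. In the A to H libraries, 2 against 1, it was -0.35, of the opposite sign. NES-AURKA clones had 28.2 RPKM and control lines 57 RPKM, so the WT-AURKA mean lay below the controls and the NLS-AURKA mean beside them. The table holds 1 row for AURKA and does not separate the cDNA from the endogenous gene.

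**Figure D1:**
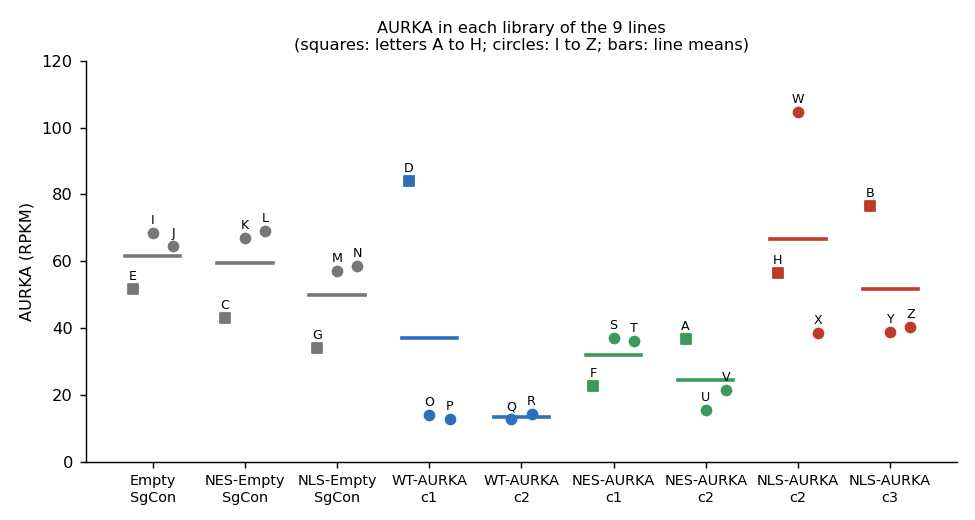
AURKA level (RPKM) in each of the 26 libraries, by line. Squares are libraries lettered A to H, circles are I to Z and bars are line means. Library D, at 84.1 RPKM, stands far above the other 4 WT-AURKA libraries at 12.7 to 14.3.

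Differences ran in both directions. Of 12589 genes that reached 1 RPKM in at least 2 libraries, 2360 were higher in NLS-AURKA (18.7% of those tested) and 2187 lower (17.4%) at an adjusted p under 0.05 in limma, fitted on 1 mean of log2(RPKM + 1) per line. Most were small, and 243 genes (1.93%) were higher and 301 (2.39%) lower by at least 2-fold on that scale. These p-values treat the clones of a construct as independent lines, which was not tested. Without library D the counts were 3142 higher and 2889 lower of 12548 (25.0% and 23.0%), a fit in which WT-AURKA has no A to H library and NLS-AURKA still does. In the I to Z libraries, where each clone has 2 libraries, they were 2489 and 2214 of 11717 (21.2% and 18.9%), and 1910 and 1755 of these were called in the pooled fit as well. In a fit of single libraries, 123 genes (0.977%) were higher and 152 (1.21%) lower by at least 2-fold in all 4 pairings of an NLS-AURKA clone with a WT-AURKA clone. Between the clones of a construct no gene was called in limma at any size (0.0% for NLS-AURKA c3 against c2 and for WT-AURKA c2 against c1). At an unadjusted p under 0.05 there were 114 and 57 genes, less than the share of 0.05 of 12589 that chance alone would give. That fit has no term for the letter set, so differences between letter sets widen its spread between libraries. The lack of calls thus does not show that the clones are alike. In the I to Z libraries 12 genes were called between the NLS-AURKA clones by at least 2-fold, and smaller differences were not counted there.

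The share of genes called, and their direction, differed between chromosomes. RefSeq gives a chromosome for 11457 of the tested genes (91.0%). On the X chromosome 218 of 407 tested genes (53.6%) were lower in NLS-AURKA and 44 (10.8%) higher, with a median log2 difference of -0.48. On chromosome 18 the opposite held, with 110 of 160 genes (68.8%) higher, 4 lower and a median of 0.49. On chromosome 20, 43.6% of 321 genes were lower (median -0.27), on chromosome 7, 41.8% of 548 (median -0.27), and on chromosome 13, 40.1% of 202 (median -0.24). More genes were higher on chromosome 5 (41.0% of 519, median 0.26), chromosome 2 (38.1% of 732, median 0.19) and chromosome 21 (39.7%, median 0.24). Chromosome 1, with 1187 tested genes, had a median of 0.0034. The X chromosome median was -0.49 in the I to Z libraries and -0.46 in the A to H libraries, and that of chromosome 18 was 0.52 and 0.59.

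Within chromosomes the shifts came in long runs of neighbouring genes. The 6149 genes with a mean of at least 5 RPKM were cut, in chromosomal order, into 246 windows of about 25 genes. The median log2 difference was at least 0.3 in 35 windows and at most -0.3 in 36, with a range of -1.11 to 0.697. Chromosome 6 changed sign once: the 222 genes from EXOC2 to BAG2 had a median of 0.55, and the 144 that follow, from RAB23 to PDCD2, had -0.58. On chromosome 12 the 127 genes from WNK1 to BLOC1S1 had -0.42 and the 100 from FRS2 to PEBP1 had 0.39. Chromosome 19 opened with 78 genes at -0.48, from CDC34 to NDUFA11, followed by 127 at 0.48, from RANBP3 to SSBP4, and further windows near 0. The 196 genes from ACP1 to EIF5B on chromosome 2 had 0.41, and the 172 from RABGEF1 to ESYT2 on chromosome 7 had -0.60. The lowest run was on the X chromosome, where 97 of the 100 genes from CSTF2 to VAMP7 were lower in value, 92 of them called, and the median was -0.97. Windows past 0.3 in either direction held 28.7% of these genes and 49.0% of those called. These windows were chosen by the difference itself, so the values describe it and no test was made.

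**Figure D2:**
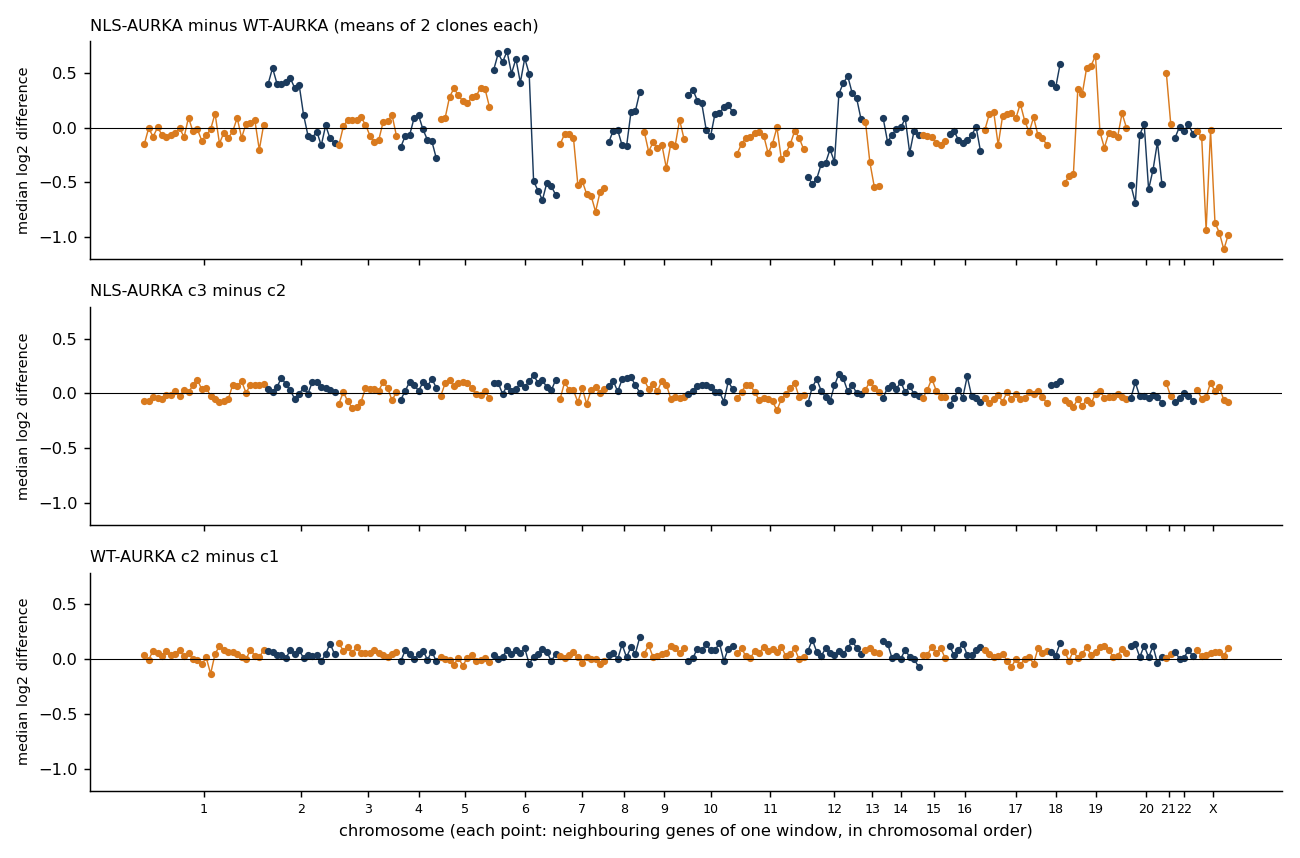
Median log2 difference of each window of about 25 neighbouring genes, in chromosomal order, alternating colours marking chromosomes. Top, NLS-AURKA minus WT-AURKA. Middle and bottom, the 2 clones of NLS-AURKA and of WT-AURKA against each other, where no window passes 0.176 and 0.200 in size.

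In the pooled means no window differed between NLS-AURKA c3 and c2 by more than 0.176, or between WT-AURKA c2 and c1 by more than 0.200. In the I to Z libraries alone these limits were 0.252 and 0.088. Over the X run from CSTF2 to VAMP7, WT-AURKA c1 and c2 lay 0.88 and 0.96 above the mean of the control lines, NES-AURKA c1 and c2 0.55 and 0.65 above, and NLS-AURKA c2 and c3 at -0.03 and -0.04. Here the WT-AURKA clones departed from the controls and the NLS-AURKA clones did not. On chromosome 2 the reverse held, with NLS-AURKA c2 and c3 at 0.36 and 0.40 and WT-AURKA c1 and c2 at -0.08 and -0.03. The pair of runs on chromosome 19 stood at -0.46 and -0.53, then 0.47 and 0.45, in the NLS-AURKA clones and between -0.06 and 0.02 of the controls in the WT-AURKA clones. All comparisons with the control lines share those 3 lines, whose libraries are of earlier passages. In each of the 14 runs of 2 or more windows the 5 WT-AURKA libraries lay to one side of all 6 NLS-AURKA libraries, each set against the control libraries of its letter set. The runs were chosen by the difference between these same libraries, D among them. Separation was thus favoured by the choice and is not a test. Libraries of 1 construct still differed among themselves. Over the run of chromosome 7 D stood at 0.75 and O, P, Q and R at 0.39 to 0.44, and over RAB23 to PDCD2 on chromosome 6 X stood at -0.38 and B at -0.0042. Library D, whose AURKA level was that of the NLS-AURKA libraries, lay with WT-AURKA: over the X run it stood at 0.95, beside 0.84 to 0.90 in the other 4 and -0.17 to 0.06 in NLS-AURKA. These are RNA levels, and no DNA measurement was used here.

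**Figure D3:**
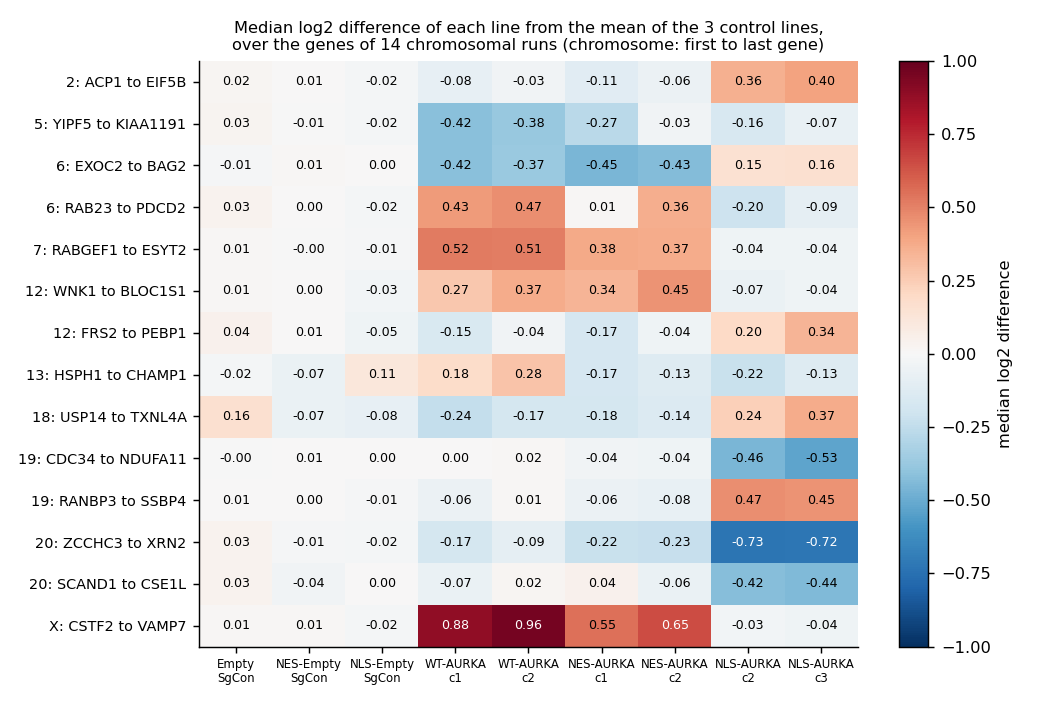
Median log2 difference of each of the 9 lines (columns) from the mean of the 3 control lines, over the genes of the 14 runs of 2 or more windows (rows, named by chromosome and by first and last gene). Red is higher and blue lower. On the X chromosome the WT-AURKA clones stand at 0.88 and 0.96, while over RAB23 to PDCD2 on chromosome 6 the NES-AURKA clones differ, at 0.01 and 0.36.

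Because of this pattern each gene was also compared after its line values were centred on the median shift of the 50 nearest genes of its chromosome, an alternative chosen after seeing the data. It left 2021 genes higher (17.6%) and 1502 lower (13.1%) of 11457, of which 1260 and 1077 were called before centring too. For genes with a known chromosome the centred value is given below where it ends a call or moves the difference by over 1.5 times. Centring also removes what clustered gene families share, since members of a family then serve as each other's neighbours.

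The 10 largest rises, by the rule for named genes, included secreted and surface proteins known from invasion. ADAMTS1, a secreted protease of the matrix, had 20.5, 24.7 and 44.8 RPKM in NLS-AURKA (lowest, median and highest) and 1.1, 0.341, 0.326, 0.274 and 0.303 RPKM in D, O, P, Q and R. The log2 difference was 4.26, SE 0.13, adjusted p = 4.9e-07, and the groups did not overlap. The rule asks for clone means that lie apart, so lack of overlap among the 10 largest rises and 10 largest falls was favoured by it. CXCR4, the receptor of the chemokine CXCL12, had 11.8, 15.5 and 33.2 RPKM in NLS-AURKA and 0, 0.12, 0, 0.0323 and 0 RPKM in WT-AURKA (4.15, SE 0.19, adjusted p = 3.3e-06). It was listed at 0 in 3 of the WT-AURKA libraries, against 4.26 RPKM in the control lines. MMP1, interstitial collagenase, had 507, 684 and 1198 RPKM and 21.1, 43.6, 52.9, 52.4 and 45.4 RPKM (4.07, SE 0.34, adjusted p = 8.9e-05). All 6 NLS-AURKA libraries exceeded the highest WT-AURKA library by far, and NES-AURKA and control means were 85.2 and 95.2 RPKM. KISS1, the kisspeptin precursor known as a metastasis suppressor, had 129.6, 314 and 411 RPKM and 4.18, 46.7, 58, 47.3 and 44.1 RPKM (2.93, SE 0.46, adjusted p = 0.0015). D was far below the other WT-AURKA libraries, and the log2 difference was 2.37 without D and 2.82 in the I to Z libraries. The A to H libraries were lower for KISS1 in other lines too. H and B were the lowest of NLS-AURKA, at 129.6 and 148 RPKM. The controls E, C and G had 0.277 to 0.843 RPKM, against 4.14 to 9.09 in the I to Z controls. In these 4 genes the NLS-AURKA mean lay above the means of WT-AURKA and NES-AURKA. Without D the differences of CKB (2.85), CST1 (2.81), HIST1H1C (2.8), B3GNT7 (2.61) and PDE1C (2.48) were larger than that of KISS1 (2.37).

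The next 6 were of varied function. CST1, a cystatin that inhibits cysteine proteases, had 209 ± 2.99 against 25.7 ± 0.176 RPKM (SD, n = 2 clones; log2 difference 2.88, adjusted p = 0.0031), with 164 RPKM in NES-AURKA. Its libraries were far less alike than the clone means, at 93.4 to 420 RPKM in NLS-AURKA, highest in H and B, and 14.2 to 41.2 in WT-AURKA. NES-AURKA c1 had 255 RPKM, above both NLS-AURKA clones, and c2 had 73.3. CKB, brain-type creatine kinase, had 19.4 ± 2.34 against 1.78 ± 0.275 RPKM (2.87, adjusted p = 0.00037) and 25.1 RPKM in the control lines. B3GNT7, a glycosyltransferase of keratan sulfate, had 5.97 ± 0.458 against 0.0973 ± 0.0212 RPKM (2.63, adjusted p = 1.8e-06), and PDE1C, a calmodulin-dependent phosphodiesterase, 6.23 ± 0.169 against 0.243 ± 0.0189 RPKM (2.49, adjusted p = 7.7e-07). PTK7, a Wnt co-receptor with an inactive kinase domain, had 17.1 ± 0.251 against 2.36 ± 0.116 RPKM (2.44, adjusted p = 0.0005). Its window on chromosome 6 had a median of 0.63, and its centred difference was 1.92. HIST1H1C is described with the histone genes.

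**Figure D4:**
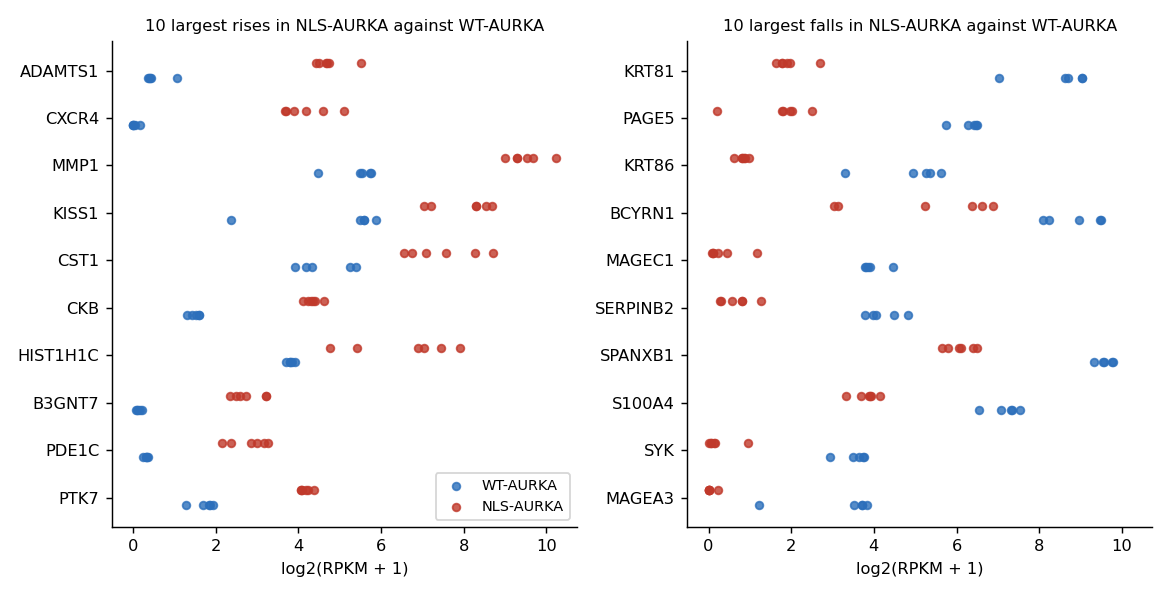
Level of the 10 genes with the largest rise (left) and the 10 with the largest fall (right) in each NLS-AURKA (red) and WT-AURKA (blue) library, as log2(RPKM + 1). The libraries of the 2 constructs do not overlap for any of the 20 genes. Their choice, by large differences with the clone means apart, favours this.

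The largest falls were of 2 hair keratin genes and of cancer-testis genes. KRT81 had 2.08, 2.57 and 5.51 RPKM in NLS-AURKA and 130.1, 521, 391, 416 and 521 RPKM in D, O, P, Q and R, a log2 difference of -6.59, SE 0.26, adjusted p = 1.8e-06. D was the lowest WT-AURKA library and was still above all NLS-AURKA libraries. KRT86, whose sequence is close to that of KRT81 so that reads may be shared between them, had 0.777 ± 0.0058 against 34.5 ± 11.8 RPKM (-4.16, adjusted p = 2.4e-05). Of 11 keratins tested, 7 fell (63.6%, beside 17.4% of all genes), none rose, and the median was -0.46. In the I to Z libraries 5 fell and 1 rose, beside 18.9% and 21.2% of all genes, and the median was -0.15. Among the others that fell, KRT7, a simple-epithelium keratin, had a log2 difference of -2.71 and KRT80 of -1.57, while KRT18 had 0.063 (adjusted p = 0.68) and KRT19 -0.11 (adjusted p = 0.46).

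Cancer-testis genes code for proteins normally confined to germ cells and are re-expressed in tumours. Of 17 tested from a list of 44, 15 were lower in NLS-AURKA (88.2%, beside 17.4% of all genes) and none higher, with a median of -1.79. All 17 are on the X chromosome, where 53.6% of the tested genes were lower and the median was -0.48. PAGE5 had 0.144, 2.73 and 4.62 RPKM in NLS-AURKA and 52.5, 88, 89.2, 76.3 and 85.3 RPKM in WT-AURKA (-4.58, SE 0.11, adjusted p = 1.3e-07). The control lines had 0.0106 RPKM and the NES-AURKA clones 52.9. MAGEC1 had 0.333 ± 0.237 against 14.5 ± 2.29 RPKM (-3.58, adjusted p = 1.9e-06), and the SPANXB1 row 68.2 ± 8.33 against 772 ± 33.9 RPKM (-3.5, adjusted p = 0.002). SPANX and MAGEA genes have near-identical copies, so their rows are uncertain. MAGEA3 had 1.34, 12.2, 12.1, 13.4 and 10.4 RPKM in D, O, P, Q and R and at most 0.179 RPKM in NLS-AURKA (-3.24, adjusted p = 0.00011), with D far below the other WT-AURKA libraries. Its NES-AURKA mean was 1.58 RPKM and its control mean 0.0945, both below WT-AURKA. XAGE1B, by contrast, was present in every group, with 62.3 ± 6.08 against 101 ± 9.09 RPKM (-0.75, adjusted p = 0.0011), and its centred difference was -0.19 (adjusted p = 0.22). After centring on neighbours 8 of the 17 were called lower and the median was -1.18.

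Other large falls were of signalling and calcium-binding genes. SYK, a tyrosine kinase best known from B cells, had 0.0119, 0.0705 and 0.924 RPKM in NLS-AURKA and 6.67, 12.3, 10.3, 11.4 and 12.6 RPKM in WT-AURKA (-3.32, SE 0.26, adjusted p = 7.5e-05), and the groups did not overlap. The control mean of SYK was 0.305 RPKM and its NES-AURKA mean 6.66, so the NLS-AURKA clones stood near the controls. SERPINB2, plasminogen activator inhibitor type 2, had 0.637 ± 0.34 against 18.4 ± 0.112 RPKM (-3.56, adjusted p = 0.00024), in a window of chromosome 18 whose median was 0.58. It had 0.128 RPKM in the control lines and 6.86 and 36.2 RPKM in NES-AURKA c1 and c2. BCYRN1, a small cytoplasmic RNA of the brain that is also found in tumours, had 58.3 ± 22.7 against 501 ± 3.71 RPKM (-3.63, adjusted p = 0.00034), with A to H and I to Z values of NLS-AURKA far apart (7.18 and 7.75 RPKM in B and H, 36.9 to 118 in the others). S100A4, a calcium-binding protein linked to metastasis, had 8.97, 13.8 and 16.7 RPKM and 91.5, 184, 158, 133 and 162 RPKM (-3.36, SE 0.42, adjusted p = 0.0005). Every WT-AURKA library exceeded every NLS-AURKA library. Of 12 S100 genes tested, 6 fell, where 17.4% of all genes did, and none rose, with a median of -0.54 (-0.50 in the I to Z libraries). S100P fell by 2.87 on the log2 scale in the pooled means, but library D had 1.59 RPKM where O, P, Q and R had 13.8 to 28.0, and NLS-AURKA had at most 1.40. S100A6 had a log2 difference of -0.62 (adjusted p = 0.062) and S100A16 one of 0.15 (adjusted p = 0.36).

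Of 18 histone genes tested from the clusters on chromosomes 6 and 1, 12 rose (66.7%, beside 18.7% of all genes) and none fell. Most of these genes make replication-coupled histones whose mRNAs end in a stem-loop and lack a poly(A) tail, and a few also make polyadenylated transcripts. Promoters of 3 of them are shown because HIST1H1C and HIST1H2AC were among the members that rose most while HIST1H1E, a close relative of HIST1H1C, had a difference near 0. Each is 300 bases from RefSeq on GRCh38.p14, from 250 before the transcription start to 50 after it, in the direction of the gene. Capitals mark the CCAAT box (CCAAT), the TATA box (TATAAA) and, where present, the octamer known from H2B promoters (ATTTGCAT). Each was searched on both strands, and TATAAA and its reverse complement can overlap each other.
HIST1H1C, chr6:26056421-26056720, minus strand: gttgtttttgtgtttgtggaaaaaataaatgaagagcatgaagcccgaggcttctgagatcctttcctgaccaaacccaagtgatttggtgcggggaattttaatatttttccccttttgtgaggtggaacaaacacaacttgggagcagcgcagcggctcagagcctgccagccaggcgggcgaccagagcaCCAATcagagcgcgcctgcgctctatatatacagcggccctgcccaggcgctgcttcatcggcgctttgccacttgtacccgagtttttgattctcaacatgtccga
HIST1H2AC, chr6:26123922-26124221, plus strand: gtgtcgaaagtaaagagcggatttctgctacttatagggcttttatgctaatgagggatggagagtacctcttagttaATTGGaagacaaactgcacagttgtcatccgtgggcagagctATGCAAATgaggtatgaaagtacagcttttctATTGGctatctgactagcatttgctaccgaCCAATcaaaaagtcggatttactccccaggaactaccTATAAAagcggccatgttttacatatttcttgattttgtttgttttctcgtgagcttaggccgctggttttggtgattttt
HIST1H1E, chr6:26156079-26156378, plus strand: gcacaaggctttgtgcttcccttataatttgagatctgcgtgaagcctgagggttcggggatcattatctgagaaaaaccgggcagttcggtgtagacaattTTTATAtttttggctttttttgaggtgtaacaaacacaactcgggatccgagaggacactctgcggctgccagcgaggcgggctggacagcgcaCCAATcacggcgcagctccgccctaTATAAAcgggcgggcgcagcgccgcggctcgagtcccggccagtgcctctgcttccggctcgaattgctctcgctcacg
CCAAT was present in 34.6% of 35116 promoters of the same length, TATAAA in 11.5% and ATTTGCAT in 1.77%. Promoters matched 13 of the 18 histone genes tested. CCAAT was in 7 of the 9 that rose and 4 of the 4 that did not pass the test, TATAAA in 6 of 9 and 4 of 4, and ATTTGCAT in 4 of 9 and 2 of 4. These promoters are not all separate sequences: those of HIST1H2BJ and HIST1H2AG overlap, and so do those of HIST2H2BE, which rose, and HIST2H2AC, which did not pass, so some motifs are counted more than once.

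The list held 33 histone genes, and the 18 tested had a median log2 difference of 0.60 against 0.01 over all genes. In the I to Z libraries 14 were higher, beside 21.2% of all genes, and the median was 0.88. HIST1H1C, the linker histone H1.2, had 26.2, 124 and 239.9 RPKM in NLS-AURKA and 14.1, 12.9, 13.4, 12.9 and 12 RPKM in D, O, P, Q and R (2.78, SE 0.089, adjusted p = 6.7e-07). The 5 WT-AURKA libraries were alike, and within NLS-AURKA the A to H libraries B and H were lowest, at 42.1 and 26.2 RPKM. The log2 difference was 3.54 in the I to Z libraries and 1.18 in the A to H libraries. HIST1H2BK had 47.1, 129 and 329 RPKM and 31.7, 29, 23.7, 18.7 and 13.3 RPKM (2.39, SE 0.24, adjusted p = 0.00019), again with B and H lowest in NLS-AURKA. HIST1H2AC had a log2 difference of 2.16, HIST1H2BD of 2.06 and HIST1H4H of 1.76 (1.15 when centred), and the HIST2H2AA3 row, which has an identical copy in HIST2H2AA4, of 2.29. The 6 that did not pass had means of at most 3.46 RPKM, HIST1H1E at 3.45 ± 0.389 against 3.33 ± 1.39 RPKM and HIST1H4C at 3.46 ± 0.106 against 2.31 ± 0.887 RPKM. Of the 17 with a known chromosome, 13 lie on chromosome 6, where the run from EXOC2 to BAG2 had a median of 0.55, and 4 on chromosome 1. After centring on neighbours 7 of the 17 were higher and 2 lower. MALAT1, a nuclear RNA that tells the letter sets apart, was at 7.47 to 22.1 RPKM in W, Y and Z, 6.10 in X and 20.4 to 30.6 in O, P, Q and R, and its part in the result was not tested.

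**Figure D5:**
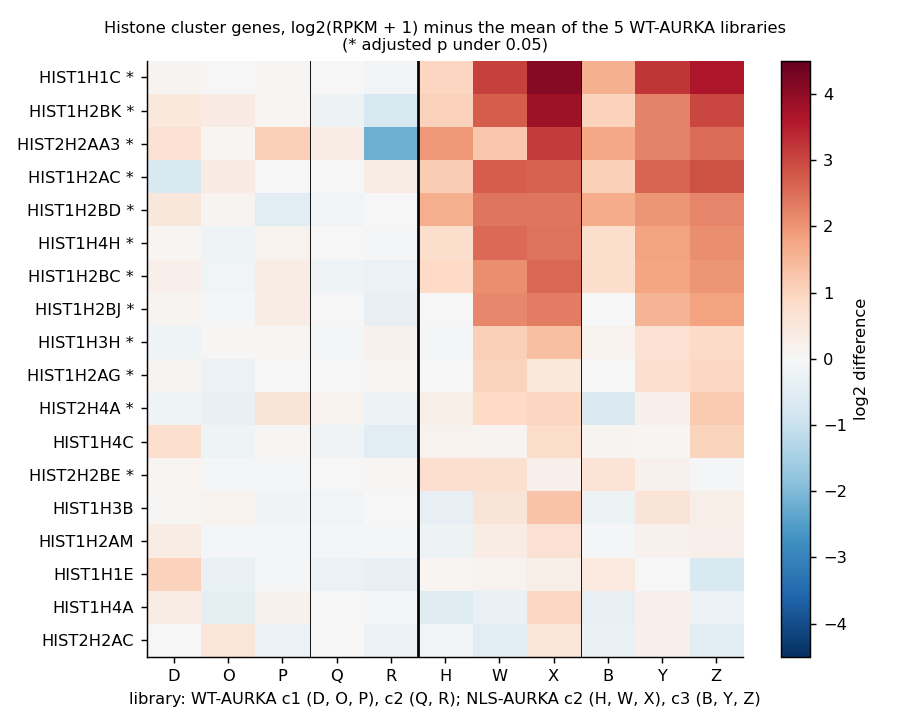
Each histone cluster gene tested (rows, asterisk for an adjusted p under 0.05) in each of the 11 libraries (columns), as log2(RPKM + 1) minus the mean of the 5 WT-AURKA libraries. Red is higher. The upper 7 rows are red in all 6 NLS-AURKA libraries, and the top row, HIST1H1C, is palest in H and B (26.2 and 42.1 RPKM).

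Of 23 partners and activators of Aurora A tested, AURKA among them, 5 were higher and 5 lower (21.7% each, near the 18.7% and 17.4% of all genes, median 0.03). In the I to Z libraries 11 were higher and 5 lower (median 0.32), beside 21.2% and 18.9% of all genes. NEDD9, a scaffold that binds and activates Aurora A, had 1.36, 1.55 and 2.73 RPKM in NLS-AURKA and 0.345, 0.368, 0.299, 0.312 and 0.259 RPKM in WT-AURKA (1.07, SE 0.10, adjusted p = 0.00013), with no overlap. Its window on chromosome 6 had a median of 0.68, and its centred difference was 0.49. BORA, the co-factor through which Aurora A activates PLK1, fell by 0.94 on the log2 scale (4.31 ± 0.248 against 9.04 ± 0.213 RPKM, adjusted p = 0.00032), in a window of chromosome 13 at -0.54, and its centred difference was -0.41. CEP192, which recruits Aurora A to centrosomes and lies on chromosome 18, had 4.99 ± 0.285 against 2.57 ± 0.562 RPKM (0.75, adjusted p = 0.0023), and its centred difference was 0.33 (adjusted p = 0.12). TPX2, the main activator of Aurora A, had a log2 difference of 0.22 (adjusted p = 0.14) and PLK1 one of -0.16 (adjusted p = 0.34).

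Counts of cell-cycle genes changed with the libraries used. Of 40 mitosis genes 2 were higher and 8 lower in the pooled fit (5.0% and 20.0%, median -0.06), but 15 higher and 2 lower in the I to Z libraries (median 0.28) and 6 higher and 9 lower without D (median 0.05). Of all genes 18.7% were higher and 17.4% lower in the pooled fit, and 21.2% and 18.9% in the I to Z libraries. Without D the shares of all genes were 25.0% and 23.0%. MKI67, the proliferation antigen Ki-67, had a log2 difference of 1.22, adjusted p = 0.034, a call lost without any one of libraries B, H, O or P (adjusted p = 0.31, 0.11, 0.27 and 0.30) and after centring (adjusted p = 0.057), and the log2 difference was 1.99 without D. D had 46.1 RPKM and O, P, Q and R had 0.771 to 1.11, while NLS-AURKA had 24.4 and 25.0 in H and B and 2.21 to 8.15 in the others. CDC25B, the phosphatase that starts mitotic entry, fell in every setting shown (12.6 ± 0.179 against 26 ± 0.19 RPKM, -1.0, adjusted p = 0.0001, and -0.91 in the I to Z libraries). Its window on chromosome 20 had a median of -0.52, and its centred log2 difference was -0.39. Of 42 replication and E2F target genes 12 were higher and 4 lower (28.6% and 9.52%, median 0.08), and 19 and 2 in the I to Z libraries (median 0.34). MCM10, a replication initiation factor, had 7.73 ± 0.731 against 3.66 ± 0.71 RPKM (0.93, adjusted p = 0.0021), with a log2 difference of -0.0031 in the A to H libraries. PCNA, the sliding clamp, fell by 0.65 (59.6 ± 0.696 against 92 ± 6.42 RPKM, adjusted p = 0.0011), and its centred difference was -0.063 (adjusted p = 0.57).

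Among transcription factors and cyclins, E2F3 had 15.8 ± 0.384 against 7.74 ± 0.655 RPKM (0.94, adjusted p = 0.00013) and MYC 68.5 ± 4.0 against 42.7 ± 3.37 RPKM (0.67, adjusted p = 0.003), with no overlap of libraries for either. E2F3 lies in a window of chromosome 6 at 0.68, and its centred difference was 0.37. FOXM1, a driver of mitotic genes, was lower in the pooled means (-0.48, adjusted p = 0.031) and had -0.12 in the I to Z libraries, with D the highest WT-AURKA library at 40.2 RPKM. The call of FOXM1 was lost there, without library H (adjusted p = 0.33) or Q (adjusted p = 0.075), and after centring (-0.054, adjusted p = 0.82). CCND1, cyclin D1, had 161 ± 8.69 against 111 ± 9.33 RPKM (0.53, adjusted p = 0.0038, and 0.86 when centred). CCND2, cyclin D2, moved the other way, with 1.69, 2.77 and 2.97 RPKM in NLS-AURKA and 6.96, 8.58, 10.5, 12.9 and 10.5 RPKM in WT-AURKA (-1.67, SE 0.25, adjusted p = 0.0011). CDKN1B, the inhibitor p27, fell by 0.67 (adjusted p = 0.00067), and its centred value was -0.26 (adjusted p = 0.077). Of 34 MYC target and ribosome biogenesis genes 10 rose and 2 fell (29.4% and 5.88%, beside 18.7% and 17.4% of all genes, median 0.26). In the I to Z libraries 17 rose and 0 fell, beside 21.2% and 18.9% of all genes. CAD, which opens pyrimidine synthesis, had 17.5 ± 0.975 against 7.28 ± 0.0263 RPKM (1.17, adjusted p = 0.00019, and 0.70 when centred).

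Of 30 matrix proteases and inhibitors 7 rose, ADAMTS1 and MMP1 most, and 10 fell (23.3% and 33.3%, beside 18.7% and 17.4% of all genes, median 0.12). CTSB, cathepsin B, had 13.2, 16.1 and 17.2 RPKM in NLS-AURKA and 54.5, 74.8, 58.8, 62.4 and 75 RPKM in WT-AURKA (-2.0, SE 0.18, adjusted p = 0.00013), and CTSD, cathepsin D, 174 ± 0.161 against 509 ± 54.7 RPKM (-1.54, adjusted p = 0.0031). Both are lysosomal proteases, and of 37 lysosomal genes 16 fell and 2 rose (43.2% and 5.41%, median -0.41). In the I to Z libraries 21 of 36 were lower and 2 higher (median -0.56), beside 18.9% and 21.2% of all genes. The lysosomal mannosidase MAN2B1 rose (14.2 ± 0.39 against 3.79 ± 0.458 RPKM, 1.68, adjusted p = 7.7e-05). Among 35 matrix components and crosslinkers 8 rose and 6 fell (22.9% and 17.1%). LOX, lysyl oxidase, had 28.3, 41.6 and 55 RPKM and 8.48, 12.3, 11.4, 12.2 and 12.7 RPKM (1.7, SE 0.14, adjusted p = 8.7e-05), with no overlap. LAMB3, a chain of laminin 332, had 109 ± 5.01 against 52.9 ± 4.99 RPKM (1.03, adjusted p = 0.00016), while LAMB1 had 3.23 ± 0.00396 against 11 ± 2.9 RPKM (-1.45, adjusted p = 0.00012, and -0.81 when centred) and COL6A1 4.06 ± 0.147 against 11.3 ± 1.48 RPKM (-1.49, adjusted p = 0.0072).

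Epithelial and mesenchymal genes showed no common direction. Of 27 junction genes 6 rose and 4 fell (22.2% and 14.8%), and of 17 mesenchymal genes and regulators 3 rose and 4 fell (17.6% and 23.5%), shares near the 18.7% and 17.4% of all genes. VIM, vimentin, rose from 382 ± 1.1 RPKM in WT-AURKA to 864 ± 49.4 RPKM in NLS-AURKA (SD, n = 2 clones; 1.16, adjusted p = 0.0071). So did DSP, desmoplakin of desmosomes, from 8.54 ± 1.65 RPKM to 24.2 ± 0.0302 RPKM (1.36, adjusted p = 0.0001), although X overlapped D. Its window on chromosome 6 was at 0.53 and its centred difference was 0.78. CLDN4, a tight-junction claudin, fell by 1.03 (10.9 ± 1.4 against 22.9 ± 2.78 RPKM, adjusted p = 0.00039, and -0.66 when centred), and NT5E, the ecto-enzyme CD73, by 1.29 (162 ± 11.3 against 396 ± 27 RPKM, adjusted p = 0.0011, and -0.79 when centred). LCP1, the leukocyte plastin found in many tumour cells, had 2.17, 3.34 and 3.82 RPKM in NLS-AURKA and 5.36, 44.1, 42.3, 42.9 and 41.6 RPKM in WT-AURKA (-2.92, adjusted p = 0.0011), with D again apart from the other WT-AURKA libraries. TNS4, a focal-adhesion adaptor, had at most 0.188 RPKM in NLS-AURKA and 4.38 to 5.26 in WT-AURKA (-2.43, SE 0.15, adjusted p = 2.2e-05), and 46.1 RPKM in the control lines.

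Of 29 genes linked to metastasis in MDA-MB-231 sublines 11 rose and 8 fell (37.9% and 27.6%, beside 18.7% and 17.4% of all genes, median 0.23). Risers other than ADAMTS1, CXCR4 and MMP1 included FST, follistatin, which binds activins, with 14, 25.2 and 34.8 RPKM in NLS-AURKA and 2.98, 6.18, 7.27, 6.86 and 6.34 RPKM in WT-AURKA (1.82, SE 0.20, adjusted p = 0.00026). Fallers included KRT81 and ID3. Of 19 metastasis suppressor genes 5 rose and 4 fell (26.3% and 21.1%). KISS1 led the risers, and DLC1, a GTPase-activating protein, was the largest fall, with 0.364, 0.694 and 1.58 RPKM and 12.1, 11.8, 12.7, 12.7 and 11.5 RPKM (-2.87, SE 0.10, adjusted p = 1e-06). The 5 WT-AURKA values of DLC1 were alike, and the control mean was 16.6 RPKM. SRPX, a secreted sushi-repeat protein, had 10.1 ± 0.775 against 4.54 ± 0.0105 RPKM (0.98, adjusted p = 0.0026).

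In the TGF-beta and BMP families 13 of 35 genes fell and 4 rose (37.1% and 11.4%, beside 17.4% and 18.7% of all genes, median -0.07). The 4 that rose were FST, described above, NOG, noggin, which binds BMPs (12.9 ± 2.51 against 4.61 ± 0.0536 RPKM, 1.3, adjusted p = 0.0008), and the signal transducers SMAD2 (0.45, adjusted p = 0.01) and SMAD4 (0.81, adjusted p = 0.0012). Their centred differences were -0.019 (adjusted p = 0.9) for SMAD2 and 0.34 for SMAD4. ID1 and ID3, helix-loop-helix inhibitors of differentiation induced by BMPs, were among the fallers. ID1 had 6.21, 32.5 and 46.2 RPKM in NLS-AURKA and 103, 87.6, 84.8, 90.0 and 75.5 RPKM in WT-AURKA (-1.93, SE 0.14, adjusted p = 5e-05). ID3 had 0.533, 6.23 and 13.5 RPKM and 19.1, 24.3, 24.9, 23.9 and 23.2 RPKM (-2.18, SE 0.21, adjusted p = 0.00013). For both genes B and H were the lowest libraries, and the I to Z differences were smaller, -1.15 and -1.41. Among 10 EGF receptors and ligands, EREG, epiregulin, had 2.85 ± 0.539 against 14 ± 0.404 RPKM (-2.05, adjusted p = 0.00043) and AREG, amphiregulin, 23.2 ± 1.03 against 61.3 ± 6.19 RPKM (-1.39, adjusted p = 0.00037), while HBEGF had 15.7 ± 0.0119 against 9.15 ± 1.08 RPKM (0.72, adjusted p = 0.00075). In the Wnt pathway 7 of 28 genes rose and 2 fell (25.0% and 7.14%). The receptor FZD8 had 5.22 ± 0.173 against 0.877 ± 0.0722 RPKM (1.72, adjusted p = 1.7e-05), and the ligand WNT7B fell by 1.24 (3.69 ± 0.346 against 10.3 ± 2.01 RPKM, adjusted p = 0.00024). TEAD4, a DNA-binding partner of YAP, had 12.7 ± 1.28 against 4.96 ± 0.0408 RPKM (1.14, adjusted p = 0.0001), in a window of chromosome 12 whose median was -0.45.

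Inflammatory and antigen-presentation genes gave mixed counts. Of 33 chemokine, cytokine and NF-kB genes 11 rose and 4 fell in the pooled fit (33.3% and 12.1%, beside 18.7% and 17.4% of all genes, median 0.27). In the I to Z libraries 5 of 30 rose and 6 fell (median -0.02), beside 21.2% and 18.9% of all genes. IL1A, interleukin 1 alpha, had 2.16, 5.04 and 16.2 RPKM in NLS-AURKA and 0.569, 1.45, 1.24, 0.912 and 1.14 RPKM in WT-AURKA (1.79, SE 0.28, adjusted p = 0.0014). Of 45 interferon-stimulated genes 6 rose and 7 fell (13.3% and 15.6%), shares below those of all genes. DDX58, the RNA sensor RIG-I, had 16.6 ± 1.1 against 5.96 ± 0.935 RPKM (1.3, adjusted p = 0.00024) and IFITM1 21.5 ± 0.0727 against 8.39 ± 0.795 RPKM (1.27, adjusted p = 0.00047), while OASL had 1.06 ± 0.0212 against 3.44 ± 0.0166 RPKM (-1.12, adjusted p = 0.0064). Of 8 MHC class II genes 5 rose (62.5%) and none fell (median 0.99, and 1.03 in the I to Z libraries). HLA-DRB1 had 2.8, 4.22 and 5.56 RPKM and 0.357, 0.649, 0.0535, 0.292 and 0.272 RPKM (1.99, SE 0.28, adjusted p = 0.00089). All but CD74 lie on chromosome 6, where the window of HLA-DRB1 had a median of 0.49, and after centring 1 was called. HLA rows also share reads between alleles and paralogues, which the table cannot separate. The class I light chain B2M fell by 0.90 (81.8 ± 5.34 against 156 ± 8.23 RPKM, adjusted p = 0.0012), while the transporter TAP2 rose (0.76, adjusted p = 0.00029), with a centred value of 0.18 (adjusted p = 0.12).

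Of 18 angiogenic factors 6 rose and 5 fell (33.3% and 27.8%, beside 18.7% and 17.4% of all genes), and of 15 stem cell genes 5 rose and 3 fell (33.3% and 20.0%). KDR, the VEGF receptor 2, had 3.32 ± 0.126 against 0.616 ± 0.0825 RPKM (1.41, adjusted p = 6.9e-05) and ROBO4, an endothelial guidance receptor, 11.1 ± 1.08 against 5.2 ± 0.0756 RPKM (0.95, adjusted p = 0.0051), with the defining endothelial gene CDH5 near 0 as given above. CCBE1, needed for lymphatic growth, was listed at 0 to 0.0109 RPKM in WT-AURKA and at 3.09 to 4.82 in NLS-AURKA, and control lines had 8.87 RPKM. FGF5 had 15.4 ± 1.21 against 4.64 ± 0.207 RPKM (1.51, adjusted p = 1.7e-05) and PGF, placental growth factor, fell by 1.33 (0.383 ± 0.0833 against 2.54 ± 0.205 RPKM, adjusted p = 0.0011). SOX9 had 28.7 ± 1.76 against 12.4 ± 3.51 RPKM (1.2, adjusted p = 0.0011) and LGR5, a receptor of R-spondins, 1.39 ± 0.336 against 0.0862 ± 0.0117 RPKM (1.02, adjusted p = 0.00056), while the Notch ligand JAG1 fell by 0.82 (16.8 ± 2.06 against 29.7 ± 0.556 RPKM, adjusted p = 0.0019), and KLF4 (-0.57, adjusted p = 0.025) and MSI2 (-0.55, adjusted p = 0.0031) fell as well. After centring JAG1 stood at -0.29 (adjusted p = 0.089) and KLF4 at -0.34 (adjusted p = 0.098), so neither call held, and in the I to Z libraries KLF4 stood at -0.96. LGR5 was below the level tested in the I to Z libraries.

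Metabolic gene lists differed in direction. Of 18 aldo-keto reductase and NRF2 target genes 8 fell and 3 rose (44.4% and 16.7%, beside 17.4% and 18.7% of all genes, median -0.40). AKR1B1, aldose reductase, had 14.5 ± 0.685 against 38.8 ± 1.82 RPKM (-1.36, adjusted p = 0.00023, and -0.73 when centred). Of 26 cholesterol synthesis genes 7 rose and 5 fell in the pooled fit (26.9% and 19.2%). In the I to Z libraries 4 rose and 10 fell, beside 21.2% and 18.9% of all genes. EBP, a sterol isomerase on the X chromosome, fell by 1.89 (6.63 ± 0.586 against 26.2 ± 2.72 RPKM, adjusted p = 0.00013). Of 45 HIF target and glycolysis genes 6 rose and 12 fell (13.3% and 26.7%, beside 18.7% and 17.4% of all genes). EPAS1, the subunit HIF-2 alpha, fell by 1.09 (9.19 ± 0.747 against 18.1 ± 0.257 RPKM, adjusted p = 0.00037), with -0.051 in the A to H libraries. HKDC1, a hexokinase, fell by 1.96 in the pooled means (adjusted p = 0.00096), but D, at 1.12 RPKM, lay with the NLS-AURKA libraries, and O, P, Q and R had 10.4 to 12.7.

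Amino acid stress genes rested on few libraries. Of 33 ATF4 genes 8 fell and 1 rose in the pooled fit (24.2% and 3.03%, median -0.46), 25 and 1 without D (median -0.73), and 13 and 1 in the I to Z libraries (median -0.68). Of all genes 17.4% fell and 18.7% rose in the pooled fit, and 23.0% and 25.0% without D. In the I to Z libraries the shares of all genes were 18.9% and 21.2%. With clone NLS-AURKA c2 also left out of the I to Z libraries, 4 fell and 1 rose (median -0.20). ASNS, asparagine synthetase, had 6.90 RPKM in W, 56.1 in X and 98.9 and 111 in Y and Z, against 139.5 to 163 in O, P, Q and R and 21.9 in D. TRIB3, an ATF4-induced pseudokinase, had 4.21 to 24.3 RPKM in NLS-AURKA and 65.5 to 78.4 in O, P, Q and R, with 5.77 in D. The pooled calls of ASNS (-1.48, adjusted p = 0.035) and TRIB3 (-1.58, adjusted p = 0.014) were both lost without O (adjusted p = 0.094 and 0.073), without P (adjusted p = 0.11 and 0.089) and after centring (-0.99 and -0.97, adjusted p = 0.13 and 0.08), and that of ASNS also without B (adjusted p = 0.16). The single riser, NARS, is on chromosome 18 (0.69, adjusted p = 0.021), and its centred difference was 0.24 (adjusted p = 0.16).

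Counts of ribosomal and respiratory genes changed with the libraries used. Of all genes 18.7% rose and 17.4% fell in the pooled fit, and 25.0% and 23.0% without D. In the I to Z libraries the shares of all genes were 21.2% and 18.9%. Of 73 cytosolic ribosomal protein genes 12 rose and 6 fell (16.4% and 8.22%, median 0.06), without D 6 rose and 19 fell (median -0.13), and in the I to Z libraries 16 rose and 3 fell (median 0.15). RPL17, on chromosome 18, had 282 ± 14.6 against 126 ± 8.36 RPKM (1.14, adjusted p = 0.0012, and 0.70 when centred), and RPL10, on the X chromosome, 123 ± 0.433 against 212 ± 24.8 RPKM (-0.77, adjusted p = 0.004). After centring RPL10 had 0.27 (adjusted p = 0.12). Of 70 respiratory chain genes 7 rose and 17 fell (10.0% and 24.3%, median -0.13), without D 4 rose and 30 fell (median -0.24), and in the I to Z libraries 17 rose and 5 fell (median 0.04). ATP5A1, on chromosome 18, had a log2 difference of 0.68, adjusted p = 0.00073, and NDUFA1, on the X chromosome, of -0.95, adjusted p = 0.00032. Centred on their neighbours they had 0.22 (adjusted p = 0.087) and -0.025 (adjusted p = 0.85).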

How the data were processed

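RNA of 26 libraries of 9 MDA-MB-231Luc lines was sequenced from 500 ng of total RNA with an mRNA kit, per the labels. The authors deposited RPKM values for 33562 gene symbols. The submitters' processing notes name HISAT2, SAMtools, Partek and hg19, without versions. Annotation and strand setting were not stated. Depth was estimated from value steps times GENCODE lengths of 3474 genes with 1 transcript. RPKM are not counts, so limma 3.58.1 (R 4.3.3, mean-variance trend, tested on simulated data) was run on log2(RPKM + 1), which understates changes of low genes, for genes at 1 RPKM in at least 2 libraries. Libraries were averaged within a line, and 9 lines in 4 groups gave the spread. The 2 clones of NLS-AURKA, and the 2 of WT-AURKA, were alike over the chromosomal runs. The I to Z libraries of WT-AURKA did not group by clone. The fit treats clones as independent. Its p-values may thus be too small, and the SDs of 2 clones may understate variation between separately made lines. P-values were Benjamini-Hochberg adjusted over all 12589 genes, and an SE is that of the log2 difference. Chromosomes and promoters came from RefSeq (GRCh38.p14) by symbol or synonym, and no coordinate of the authors' build was used.

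Named genes were AURKA, the 10 largest rises and falls among called genes with at least 5 RPKM in the higher construct and both clones apart in the pooled, D-less and I to Z means, and up to 2 called members in each direction from each of 52 lists. Other genes given beside them (such as KRT7, TPX2, CEP192 or HIST1H1E) were chosen after their values were seen. The members and lists were chosen with earlier results of these data known. Alternatives left out libraries, letter sets or clones, and changed scaling, filter, pseudocount and fit.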

Additional observations from a re-analysis of the deposited data

Results flagged for a closer look

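Among 96 reported genes, each looked at in both constructs (192 groups of 5 or 6 libraries), 37 groups held 1 library outside Dixon's 95% limit. Chance alone gives about 1 in 20 groups. Library D of WT-AURKA c1 accounted for 27 of the 37. D is the only A to H library of its group, so the rule cannot tell D from its letter set. In the control lines MKI67 was also high in the A to H libraries E, C and G (25.7, 30.9 and 27.7 RPKM, against 0.674 to 2.43 in I to Z). AURKA was not: E, C and G had 51.8, 43.1 and 34.0 RPKM, against 57.1 to 68.9. KISS1 was lower in E, C and G (0.277, 0.593 and 0.843 RPKM, against 4.14 to 9.09), as in D. DSP was higher there (43.3, 44.7 and 40.5 RPKM, against 14.2 to 18.7), as in D. ADAMTS1, MAGEC1 and FOXM1, high in D, were lower in E, C and G than in the I to Z controls. MAL2, low in D, overlapped between the letter sets of the controls. The remaining genes were not compared in this way.

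D was above the other WT-AURKA libraries for AURKA (84.1 RPKM against 12.7 to 14.3), ADAMTS1 (1.10), MAGEC1 (21.0), MKI67 (46.1), FOXM1 (40.2), LAMB1 (20.8), MAN2B1 (5.71), DSP (15.1), DDX58 (8.58), WNT7B (17.4) and SOX9 (25.9). It was below them for KISS1 (4.18 RPKM), MAGEA3 (1.34), LAMB3 (38.2), MAL2 (8.66), LCP1 (5.36), FST (2.98), ID3 (19.1), AREG (43.4), PGF (1.10), TRIB3 (5.77), ASNS (21.9), EBP (16.2), HKDC1 (1.12), RPL17 (69.8), RPL10 (104.5) and ATP5A1 (17.1).

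In NLS-AURKA, library H of clone c2 was highest for KRT81 (5.50 RPKM), MAGEC1 (1.25), SYK (0.924), HLA-DPA1 (2.62) and PGF (0.718), all genes at low levels there. Library W was highest for ADAMTS1 (44.8 RPKM) and lowest for MYC (55.1), and Y was highest for MAGEA3 (0.179, the others listed at 0 or at a value that rounds to it). In WT-AURKA, O was highest for CXCR4 (0.120 RPKM) and R lowest for KDR (0.459).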

How the results depend on the processing

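Over 28 alternative settings, 96 reported genes gave 2679 values, of which 2530 kept direction and side of the threshold, 141 lost the call and 8 changed sign. In the A to H libraries alone, where WT-AURKA is library D, the signs that changed were those of AURKA (log2 difference -0.35), MKI67 (-0.88), MCM10 (-0.0031), SOD2 (0.30), TRIB3 (1.44), ASNS (0.31) and HKDC1 (0.31), 57 other calls were lost, and 208 genes were higher and 197 lower. Centring on neighbours turned RPL10 (0.27). Leaving out clones gave 1263 higher and 1189 lower (without NLS-AURKA c2), 1544 higher (without NLS-AURKA c3) and 1359 and 1280 (without WT-AURKA c2), a lone clone being assumed to vary like the others. A filter of 5 RPKM, which tests fewer genes, gave 1543 higher. Leaving out 1 library each gave 1828 to 3142 higher and 1705 to 2889 lower genes, the upper end without D, and 1.29 to 1.95 for AURKA on the log2 scale. The counts called in all 4 pairings were 188 and 264 in the I to Z libraries, where 12 genes were called between the NLS-AURKA clones by at least 2-fold. Median-ratio scaling put 56.1% of calls on the higher side against 51.9%, and no scaling moved the median of all genes by over 0.1. The cause of these changes was not tested. No paired analysis was possible because the library letters are unique and pair no samples. Depth limits genes near 1 RPKM most.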
